A study of Mus musculus with 8 samples.

Results

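The genes of the ID proteins, Id1, Id2, Id3 and Id4, were examined for the chromatin loops recorded at them by FOXA1 and HNF4G Hi-ChIP in mouse pancreatic cancer cells. Hi-ChIP combines chromatin conformation capture with immunoprecipitation of a chosen protein, so each loop is a pair of genomic segments, called anchors, that were ligated to each other in chromatin carrying that protein. A loop was assigned to a gene when 1 anchor lay within 2 kb of an annotated start of the gene (a start loop), or when both anchors lay within 250 kb of it (a region loop). By this rule 465 of the 249200 distinct loops belonged to the 4 genes. They comprised 126 start loops and 413 region loops, and some loops were of both kinds.

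The study held 8 samples in 4 groups of 2 replicates. The groups were FOXA1 Hi-ChIP (antibody ab5089) and HNF4G Hi-ChIP (antibody HPA005438), each carried out in a tumor line and in a matched line from a liver metastasis (liver mets), both from the pancreatic cancers of KPC mice. All groups were labelled as genotype WT and untreated and were grown in DMEM with 10% FBS, so each disease stage was represented by 1 line. Each group had 1 loop list covering both replicates. The lists held 125623 loops for FOXA1 in liver mets, 104136 for FOXA1 in tumor, 78098 for HNF4G in liver mets and 76323 for HNF4G in tumor. With 1 list per group there was no replicate spread and no test between groups. The 95% intervals given here cover counting error alone and count each loop as independent of the rest, which is an approximation because many have an anchor in common. RNA levels of the ID genes and of pancreatic marker genes were not analysed here.

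ID proteins are helix-loop-helix proteins without the basic region that contacts DNA. They dimerize with E proteins such as the products of Tcf3, Tcf4 and Tcf12, and so keep tissue-specific basic helix-loop-helix (bHLH) factors from binding their sites. In the pancreas such factors direct acinar and endocrine identity, and Id1, Id2 and Id3 are well-known transcriptional targets of bone morphogenetic protein (BMP) signaling through SMAD proteins.

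All coordinates are mm10 (GRCm38). Id1 (ENSMUSG00000042745.9) lies at chr2:152736251-152737410 on the plus strand and has 1 annotated start. Id2 (ENSMUSG00000020644.9) lies at chr12:25093799-25097140 on the minus strand and has 3. Id3 (ENSMUSG00000007872.3) lies at chr4:136143497-136145755 on the plus strand and has 3, and Id4 (ENSMUSG00000021379.2) lies at chr13:48261228-48266026 on the plus strand and has 1. Anchors were identical across lists. A single anchor covered the start of Id1 (chr2:152734137-152742960, 8824 bp), of Id2 (chr12:25091598-25102279, 10682 bp) and of Id4 (chr13:48258997-48261773, 2777 bp). Id3 had an anchor over its start (chr4:136142450-136145556, 3107 bp) and another, 947 bp further upstream (chr4:136139610-136141502, 1893 bp). The upstream one lay 1995 bp from the nearest start, just inside the 2 kb limit, while the next anchor on the other side (chr4:136147161-136151125) lay 2187 bp away, just outside it, with 30 distinct loops. The nearest excluded anchors of the other genes lay 6436 bp (Id1), 12410 bp (Id2) and 26890 bp (Id4) away. The anchors of Id1 and Id2 were wider than 99.5% and 99.7% of the 30542 anchors in the lists.

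Short stretches from the anchors that the results turn on are shown so that the letters at these contacts can be read. They are plus-strand reference sequence of GRCm38, and capitals mark matches to the motifs searched on both strands: TGTTTAC and TGTTTGC for FOXA proteins, CAAAGTC and CAAAGTT for HNF4 proteins, and GGCGCC for BMP-regulated SMADs, which reads the same on both strands. A match is a description of letters and not a binding site. The first line is from the start anchor of Id1, upstream of the gene, and the next pair is from an intron of Bcl2l1 that was joined to it in every list. The following 3 are from the upstream partner of Id2 with the highest value among those joined in every list. The last pair is from the upstream anchor of Id3 and from the partner joined to that anchor in every list.
Id1 start anchor, chr2:152735112-152735197: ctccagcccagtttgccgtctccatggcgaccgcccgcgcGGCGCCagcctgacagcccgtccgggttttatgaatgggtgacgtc
Bcl2l1 intron, chr2:152817563-152817649: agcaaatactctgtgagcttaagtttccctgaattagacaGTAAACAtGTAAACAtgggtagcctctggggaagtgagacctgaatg
Bcl2l1 intron, chr2:152816698-152816784: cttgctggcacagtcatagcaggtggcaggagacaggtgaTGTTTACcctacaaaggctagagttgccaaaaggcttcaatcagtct
Id2 partner, chr12:25182707-25182793: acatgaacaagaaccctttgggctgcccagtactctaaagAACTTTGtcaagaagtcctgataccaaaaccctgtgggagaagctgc
Id2 partner, chr12:25182883-25182969: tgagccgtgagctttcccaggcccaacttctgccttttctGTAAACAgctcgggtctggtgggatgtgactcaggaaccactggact
Id2 partner, chr12:25183147-25183233: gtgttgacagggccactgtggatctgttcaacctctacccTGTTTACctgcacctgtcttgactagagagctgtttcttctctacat
Id3 upstream anchor, chr4:136139974-136140060: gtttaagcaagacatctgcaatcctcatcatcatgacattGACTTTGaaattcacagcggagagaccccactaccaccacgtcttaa
Id3 partner, chr4:136123934-136124020: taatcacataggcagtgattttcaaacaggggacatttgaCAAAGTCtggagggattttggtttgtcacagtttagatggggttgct

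The Bcl2l1 intron anchor held 7 FOXA matches, 4 of TGTTTAC and 3 of TGTTTGC. Anchors of like width (within 10%, n = 216) had a median of 3, and 7.41% of them held at least as many. The Id2 partner held 4 FOXA matches against a median of 1 (n = 3460), and 5.35% of like-width anchors held at least as many. At Id1 itself the start anchor held 4 matches to CAAAGTC and 2 to GGCGCC. The HNF4 count there lay above the like-width median of 2 and was reached by 27.0% of 148 anchors. For the SMAD motif, 54.7% of those anchors held at least 1 match, and the 2 FOXA matches lay below the like-width median of 3. The Bcl2l1 intron anchor held 1 HNF4 match against a median of 2. The anchor over the Bcl2l1 start (chr2:152829670-152832231), which had the highest HNF4G values, held 0 FOXA and 0 HNF4 matches. The Id3 upstream anchor held 1 HNF4 match and 0 FOXA matches, and the Id3 partner held 2 HNF4 matches and 1 FOXA match. At least 1 HNF4 match occurred in 44.7% and 52.0% of anchors as wide as these.

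RefSeq promoter sequence (GRCm38.p6, 250 bases before to 50 after the start) was matched for Id2, Id3 and Id4, but not for Id1. The GGCGCC letters occurred once in the Id2 window and once in the Id4 window, and TGTTTGC occurred once in the Id3 window. Among 32851 promoters of the same length, 11.9% held GGCGCC and 5.07% held TGTTTGC. The part of the Id4 window upstream of its start is shown because this gene had no loop shared by all lists, and its GGCGCC lies in a window of 73.3% G and C.
Id4 promoter, chr13:48260866-48261115, plus strand: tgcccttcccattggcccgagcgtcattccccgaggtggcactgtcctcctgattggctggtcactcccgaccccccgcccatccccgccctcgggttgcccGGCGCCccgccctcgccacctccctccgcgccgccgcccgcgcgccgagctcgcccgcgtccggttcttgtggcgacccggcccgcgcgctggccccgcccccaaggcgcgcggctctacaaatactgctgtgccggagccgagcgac

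With the loops of both its anchors counted, Id3 had the most start loops in 3 of the 4 lists. Id1 had the most in HNF4G tumor, and Id4 had the fewest in every list. Id1 had 23 start loops for FOXA1 in liver mets, 19 for FOXA1 in tumor, 21 for HNF4G in liver mets and 24 for HNF4G in tumor. Id2 had 14, 12, 10 and 10 in the same order, Id3 had 31, 28, 29 and 22, and Id4 had 4, 2, 2 and 2. The anchors of Id3 had partners in common, and with each partner counted once Id3 had 22, 20, 22 and 20. On that count it lay below Id1 in FOXA1 liver mets as well as in HNF4G tumor. The Poisson intervals of Id1 and Id3 overlapped in every list. No interval was computed for the ratio of these genes, so their order is given as counts only. Among 10802 protein-coding genes with a start anchor, the median count was 7, 6, 5 and 5. The share of these genes with fewer start loops ran from 86.8% to 94.1% for Id1, from 73.1% to 74.8% for Id2, from 92.9% to 96.9% for Id3 and from 12.4% to 24.9% for Id4. The shares for Id3 rest on the loops of both its anchors, with common partners counted at each.

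**Figure D1:**
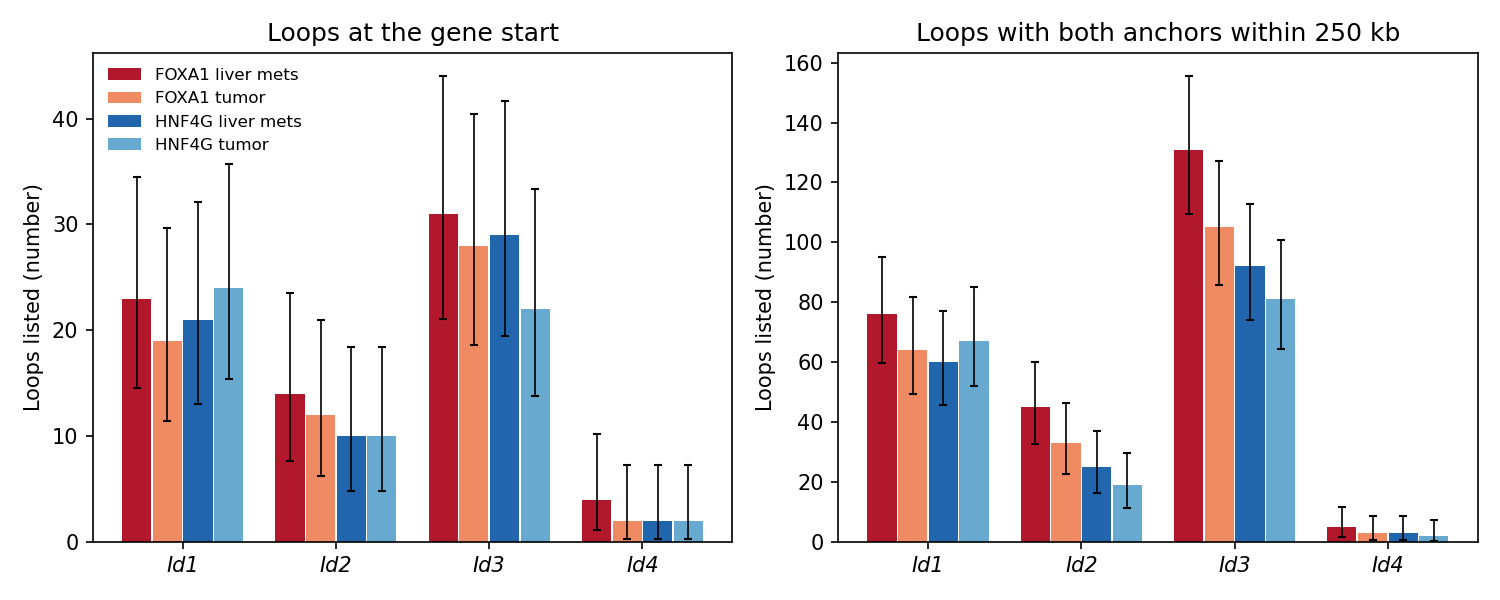
Number of start loops and of region loops (vertical axes) of each ID gene in each of the 4 lists, with bars for the count and lines for the exact Poisson 95% interval, which covers counting error only. Id4 had 4 or fewer start loops in every list, and the intervals of the lists overlapped within each gene for start loops.

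The number of start loops also followed the width of the anchor. Among start anchors of like width, the Id1 anchor was near the middle, with 40 distinct loops against a median of 42 (n = 95). The Id2 anchor had 18 against a median of 49 (n = 47), and 6.38% of those anchors had fewer. The anchor over the Id3 start had 36 against a median of 16 (n = 1795), the upstream Id3 anchor had 24 against 12 (n = 2239), and the Id4 anchor had 8 against 15 (n = 2139).

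For Id1, the data showed a set of contacts with the neighboring gene Bcl2l1 that was present in all 4 lists. Bcl2l1 (chr2:152780668-152831728, minus strand) encodes the survival protein BCL-XL and is transcribed toward Id1. All 8 anchors that overlapped Bcl2l1 were joined to the Id1 start anchor in every list, whichever factor and line. Joined here means listed at any value, including values as low as 0.0889. Of the 28 possible pairs among these 8 anchors, 24 were listed for FOXA1 in liver mets, 19 for FOXA1 in tumor, 14 for HNF4G in liver mets and 18 for HNF4G in tumor. Id1 start loops listed in all 4 lists numbered 11 of 40, and 8 of the 11 led to Bcl2l1. The Id1 start anchor held 29 GATC sites, where the enzyme used (DpnII) cuts, against a median of 16 in 148 anchors of like width. Whether the number of cut sites bears on the loops listed was not tested.

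The evidence for these loops was read from the value given to each loop, taken as −log10 of an adjusted p, so that a higher value stands for a smaller p. This reading rests on the values alone. On it, 35 of 72 ID start loops in FOXA1 liver mets had an adjusted p of 0.05 or less. The numbers were 27 of 61 in FOXA1 tumor, 30 of 62 in HNF4G liver mets and 30 of 58 in HNF4G tumor. Being listed therefore did not require a small p. Among Id1 loops of 165 kb or more in FOXA1 liver mets, the value rose with span up to the higher tied value. It was 1.35 at 165 kb, 1.72 at 341 kb, 1.79 at 438 kb and 1.87 at 997 kb. By contrast, a 47.3 kb loop present in all 4 lists had 0.0889 there. A far loop at such a value therefore need not be better supported than a short loop at a lower one. Long runs of tied values differ between lists (1.87 and 0.0889 for FOXA1 liver mets, 1.91 and 0.123 for FOXA1 tumor, 1.99 and 0.146 for HNF4G liver mets, 1.99 and 0.171 for HNF4G tumor), so the same value need not be the same evidence in each. The loop from Id1 to the anchor over the Bcl2l1 start (chr2:152829670-152832231, 94.7 kb downstream of the Id1 start) had values of 3.42 and 3.03 for FOXA1 in liver mets and tumor, and of 10.0 and 9.28 for HNF4G. It was the 1 start loop of any ID gene with a value of at least 2 in all 4 lists, and its values were higher in both HNF4G lists than in both FOXA1 lists. The loop to the broad intron anchor shown above (chr2:152813324-152821571, 81.2 kb downstream) had 11.9 and 1.91 for FOXA1 in liver mets and tumor, and 6.34 and 2.55 for HNF4G. Here the liver mets value was the higher one for each factor, and 11.9 was the highest value of any ID start loop. The FOXA1 tumor value of 1.91 equals the higher tied value of that list.

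The other Bcl2l1 anchors had lower or more uneven values. A further anchor at the Bcl2l1 start (chr2:152825349-152828764) had 1.77 and 0.127 for FOXA1 in liver mets and tumor and 4.46 and 1.32 for HNF4G. The intron anchor at chr2:152803928-152807503 had 3.24 and 0.976 for FOXA1 and 0.146 and 1.12 for HNF4G, so that liver mets was higher for FOXA1 and tumor for HNF4G. Its HNF4G liver mets value equals the lower tied value of that list. The remaining 4 intron anchors, 49.6 kb to 75.1 kb downstream, had values between 0.0889 and 1.94.

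On the upstream side, Id1 was joined in every list to 3 anchors. The nearest, an unannotated segment 7.48 kb upstream (chr2:152727735-152729815), had 1.76 and 1.91 for FOXA1 in liver mets and tumor and 3.14 and 1.87 for HNF4G. An anchor over an exon of H13 (chr2:152699324-152702136, 35.5 kb upstream), which encodes signal peptide peptidase, had 1.87 and 6.67 for FOXA1 and 2.09 and 0.976 for HNF4G. The highest value at this anchor was thus in FOXA1 tumor, unlike at the Bcl2l1 intron. Its FOXA1 liver mets value of 1.87 equals the higher tied value of that list. The third lay over Mcts2, a retrogene inside H13 (chr2:152685951-152687753), with 1.23 and 0.123 for FOXA1 and 2.24 and 0.977 for HNF4G.

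**Figure D2:**
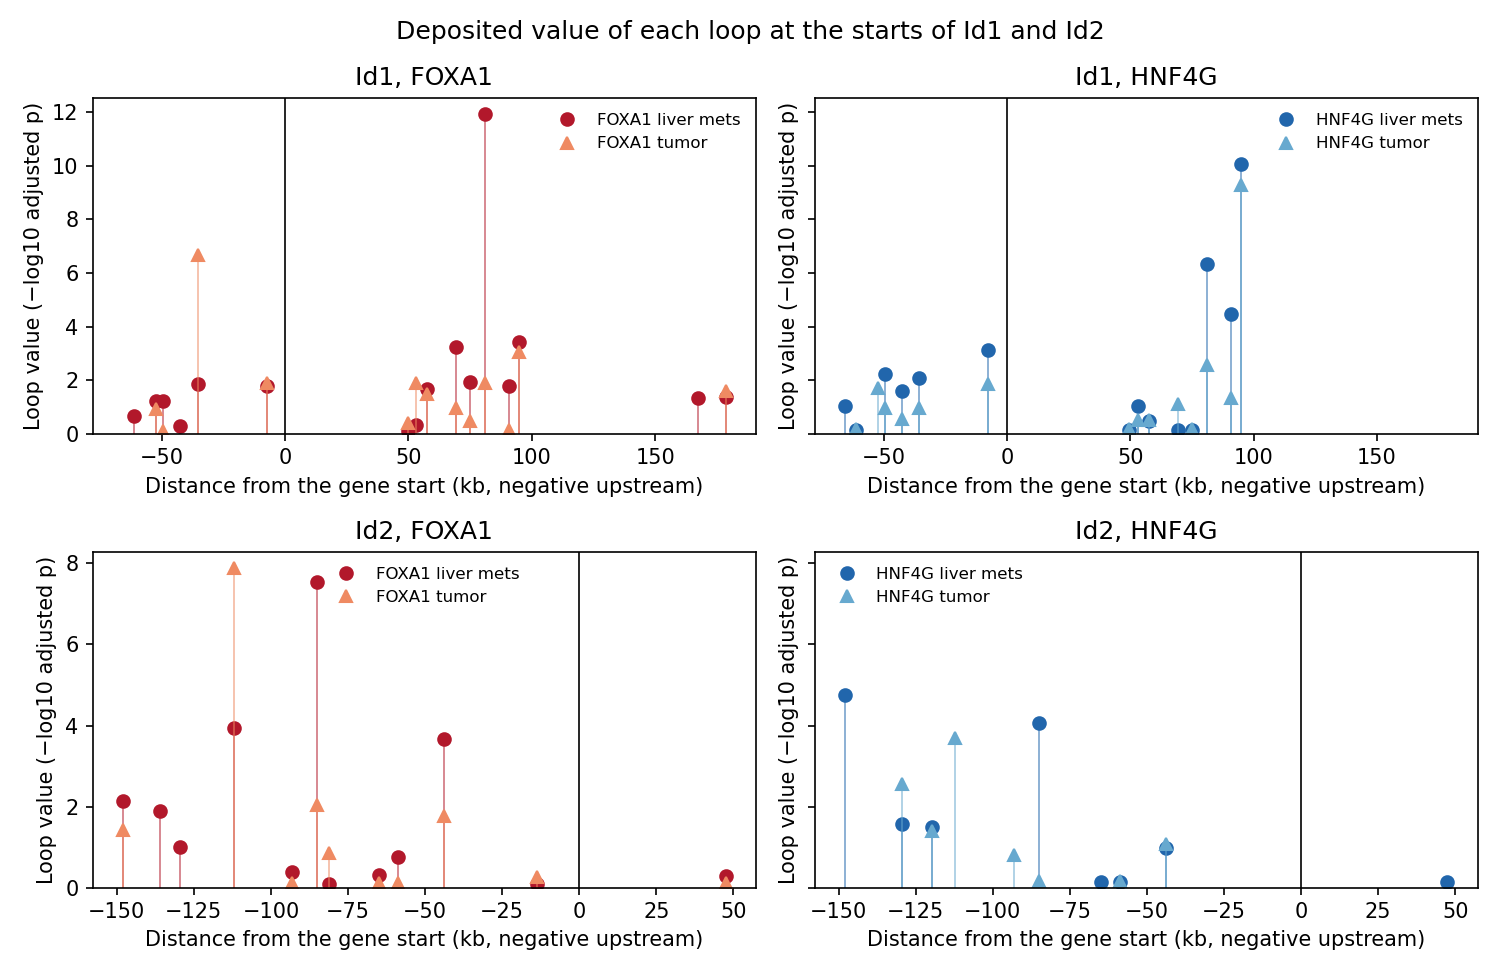
Value of each start loop within 250 kb of Id1 and Id2 (vertical axis, −log10 adjusted p as read from the values) against the distance of the partner from the gene's start (horizontal axis, kb, negative upstream), with liver mets as circles and tumor as triangles for each factor. The highest FOXA1 point of Id1 (11.9, liver mets) and the highest HNF4G points (10.0 and 9.28) lay over Bcl2l1, and the points of Id2 lay mostly upstream.

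All 17 anchors within 250 kb of the midpoint of the Id1 start anchor were joined to its start in at least 1 list, and 11 (64.7%, Wilson 95% interval 41.3 to 82.7) in all 4. In single lists 16, 13, 14 and 14 of the 17 were joined, for FOXA1 in liver mets and tumor and HNF4G in liver mets and tumor. Over 10593 start anchors of protein-coding genes with at least 5 neighbors, the median share joined in all 4 lists was 0%, and 99.9% of these anchors had a lower share than Id1. Against the 94 start anchors of like width, whose median was 28.6%, 96.8% were lower. Neither background, here or for the other ID genes, was matched for the distance of the neighbors. Of the 17 at Id1, 15 lay within 100 kb. Over protein-coding starts, 11.7% of loops of 20 to 100 kb were in all 4 lists, against 3.25% of those of 100 to 250 kb. The 23 longer Id1 loops, of 250 kb or more, included 0 in all 4 lists and 17 in a single list, and the farthest spanned 1875 kb.

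**Figure D3:**
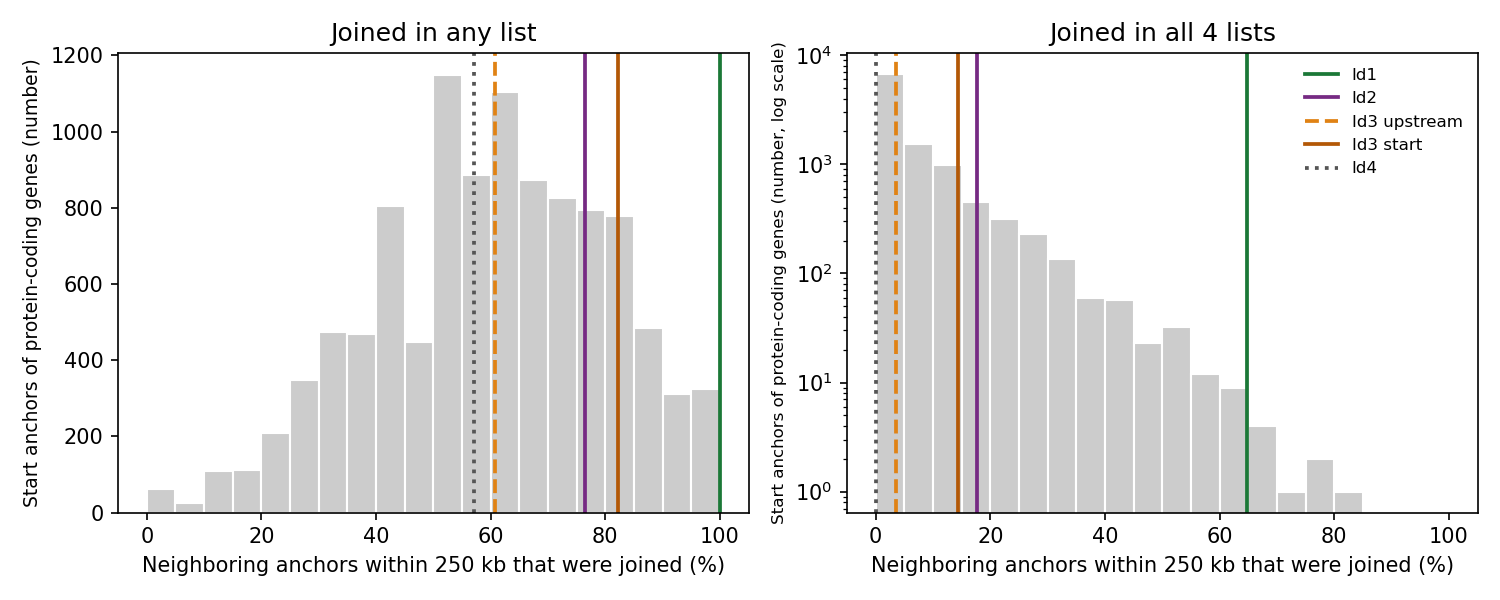
Share of anchors within 250 kb joined to a start (horizontal axes, percent), in any list on the left and in all 4 lists on the right, as histograms over 10593 start anchors of protein-coding genes (vertical axes, number, on a log scale at right) with a line for each ID anchor. In all 4 lists Id1 lay at 64.7%, while Id2 lay at 17.6% and Id4 at 0%.

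Id2 differed from Id1 in that its loops led mostly to 1 side and away from coding genes. Upstream of the gene lay 13 of its 18 distinct partners, and 0 of these 13 held the start of a protein-coding gene. In all, 3 of 18 Id2 partners (16.7%) held such a start, against 18 of 40 (45.0%) for Id1, 22 of 60 (36.7%) for Id3, 2 of 8 (25%) for Id4 and 34.0% of 161537 loops at protein-coding starts. The surroundings differed as well, since 1 other protein-coding gene started within 250 kb of Id2 and 1 of Id4, against 20 for Id1 and 13 for Id3.

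The Id2 partners with a coding start all lay downstream and are named here after their values were seen. Kidins220, a membrane scaffold protein gene, was joined in 3 lists at an annotated start inside the gene (chr12:25048351-25050959). Its values were 0.286 and 0.123 for FOXA1 in liver mets and tumor and 0.146 for HNF4G in liver mets. The anchor over the first base of Kidins220 (chr12:24974265-24975890) was joined to the Id2 start in no list. Mboat2, an acyltransferase gene, was joined in both liver mets lists (1.62 for FOXA1 and 1.89 for HNF4G) and Rrm2, a ribonucleotide reductase subunit gene, in FOXA1 tumor alone (1.84).

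The upstream partners of Id2 lay in and around Gm36287 (chr12:25150915-25209377, plus strand), a long noncoding RNA gene. The partner shown above, over the start of the noncoding gene Gm47705 within a Gm36287 intron (chr12:25180460-25183808, 85.0 kb upstream), had values of 7.53 and 2.05 for FOXA1 in liver mets and tumor and 4.05 and 0.171 for HNF4G. It was higher in liver mets for both factors, and its HNF4G tumor value was the lower tied value of that list. An unannotated partner 43.9 kb upstream (chr12:25139193-25142851) had 3.68 and 1.78 for FOXA1 and 0.971 and 1.07 for HNF4G. The third partner present in all lists, in a Gm36287 intron 58.8 kb upstream, had 0.743 and 0.123 for FOXA1 and 0.146 and 0.171 for HNF4G.

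Other Id2 loops with values of at least 2 were missing from 1 list or more, and the missing list varied. The partner over a Gm36287 exon (chr12:25208293-25210257, 112 kb upstream) had 3.95 and 7.89 for FOXA1 in liver mets and tumor and 3.68 for HNF4G in tumor. A partner 531 kb upstream (chr12:25627649-25629538) had 5.92 and 1.89 for FOXA1 and 1.99 for HNF4G in tumor. Both were absent from HNF4G liver mets. Of loops chosen after their values were seen, the one to chr12:25243969-25246221 was absent from HNF4G tumor and had 2.15 and 1.42 for FOXA1 in liver mets and tumor and 4.75 for HNF4G in liver mets, the highest HNF4G value of Id2. The one to chr12:25225814-25227420 was absent from FOXA1 tumor and had 1.00 for FOXA1 in liver mets and 1.56 and 2.57 for HNF4G in liver mets and tumor. The one to chr12:24685550-24688116, 410 kb downstream, was absent from both FOXA1 lists and had 1.97 and 3.68 for HNF4G in liver mets and tumor. An absence shows only that the loop was not listed, and the number of paired reads behind it is unknown.

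Of the 17 anchors within 250 kb of the midpoint of the Id2 start anchor, 12 and 10 were joined for FOXA1 in liver mets and tumor and 8 and 7 for HNF4G. In all 4 lists 3 (17.6%, interval 6.19 to 41.0) were joined. Of the 10593 start anchors of protein-coding genes 90.2% had a lower share than Id2, whereas among the 46 of like width the median was 37.8% and 4.35% were lower, so the standing of Id2 depends on the anchors it is set against.

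Id3 had 60 distinct start loops, the most of the 4 genes, spread over its neighboring anchors and leading to 42 distinct partners. In all 4 lists were 5 (8.33%, 3.61 to 18.1), against 5.5% over loops of protein-coding starts, and in a single list 32 (53.3%, 40.9 to 65.4), against 66.0%. The 20 loops of 250 kb or more were each in a single list. Of 28 anchors within 250 kb, 4 (14.3%) were joined in all 4 lists to the anchor over the start and 1 (3.57%) to the upstream anchor, and 87.3% and 72.7% of like-width start anchors had lower shares. The contacts in all 4 lists lay within 61.5 kb of the start. They included the anchor at the start of E2f2 (chr4:136171600-136175906, 30.3 kb downstream), a cell-cycle transcription factor gene, with values of 0.0836 and 0.123 for FOXA1 in liver mets and tumor and 0.447 and 0.430 for HNF4G. The nearest, 5.65 kb downstream, had 1.79 and 0.210 for FOXA1 and 1.15 and 1.19 for HNF4G. Both had values below 2 in every list, as did the other 3.

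The remaining shared Id3 contacts lay upstream in unannotated sequence. The partner 61.5 kb upstream (chr4:136080639-136083380) had 0.693 and 0.881 for FOXA1 in liver mets and tumor and 0.485 and 0.528 for HNF4G, a narrow range. The partner 27.3 kb upstream (chr4:136114338-136118149) had 0.572 and 0.328 for FOXA1 and 1.40 and 0.447 for HNF4G. The partner 19.8 kb upstream (chr4:136122471-136124834), whose CAAAGTC stretch is shown above, was the 1 contact of the upstream anchor present in every list, with 0.416 and 0.119 for FOXA1 and 0.337 and 0.171 for HNF4G.

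A single Id3 loop reached a value of 2. It led 171 kb upstream to the start of Lypla2, an acyl-protein thioesterase gene (chr4:135971263-135973285), with 2.40 and 2.73 for FOXA1 in liver mets and tumor and 1.66 for HNF4G in tumor, and it was not listed for HNF4G in liver mets. The next highest, 1836 kb and 1554 kb upstream, the second in an intron of Man1c1, were listed from the anchor over the start in HNF4G tumor alone, at the tied value of 1.99.

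The neighboring Id3 anchors gave different pictures for HNF4G. The upstream anchor had 13 loops for FOXA1 in liver mets, 15 for FOXA1 in tumor, 14 for HNF4G in liver mets and 4 for HNF4G in tumor. The anchor over the start had 18, 13, 15 and 18. HNF4G tumor was thus the low list at the upstream anchor and shared the highest count at the start. The liver mets to tumor ratio for HNF4G was 3.50 (1.10 to 14.6) upstream and 0.833 (0.391 to 1.75) over the start, and for FOXA1 it was 0.867 (0.380 to 1.95) and 1.38 (0.641 to 3.07).

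Of the 5 start anchors of the ID genes, 4 had at least 10 loops summed over both lines for each factor. With a ratio of at least 1.5 in either direction taken as called, 1 of 4 was called higher in liver mets for HNF4G, the upstream Id3 anchor, and 0 of 4 for FOXA1. None was called higher in tumor for either factor. Over all protein-coding start anchors the called shares were 16.9% higher in liver mets and 20.5% higher in tumor for HNF4G, and 26.4% and 9% for FOXA1. With 4 anchors, 1 call cannot be told from these backgrounds.

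The gap at the upstream anchor lay in short loops. Loops under 100 kb numbered 11, 11, 11 and 3 there for FOXA1 in liver mets and tumor and HNF4G in liver mets and tumor, of 15 distinct ones. When both Id3 anchors were merged and each partner counted once, the partners numbered 22, 20, 22 and 20, which gave ratios of 1.10 (0.573 to 2.12) for FOXA1 and for HNF4G. Both anchors shared 9, 8, 7 and 2 partners in the 4 lists.

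**Figure D4:**
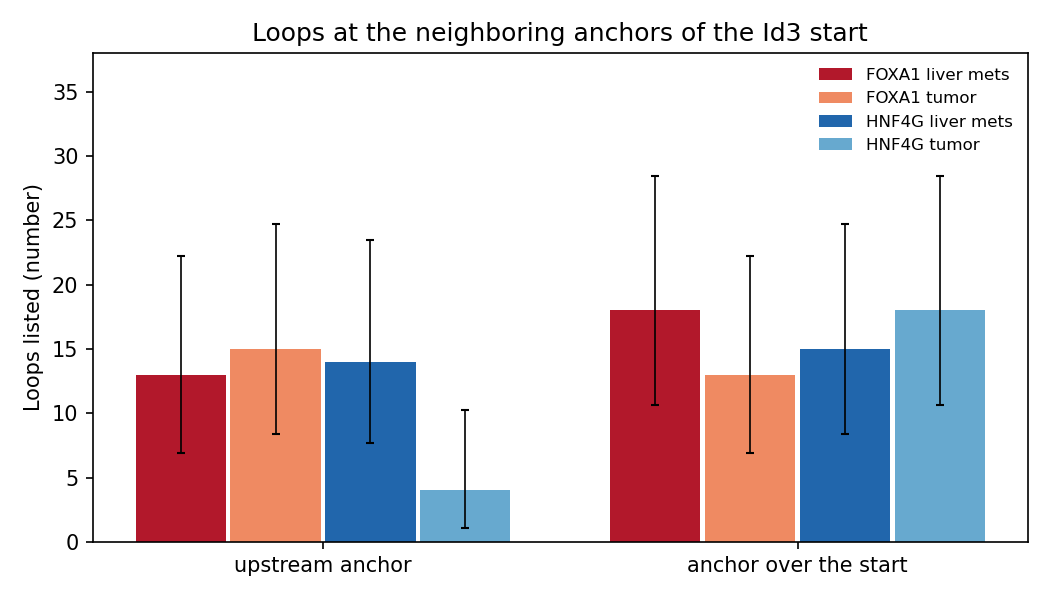
Number of loops (vertical axis) at the upstream anchor of Id3 and at the anchor over its start in each list, with exact Poisson 95% intervals, which cover counting error only. HNF4G tumor had 4 loops at the upstream anchor and 18 at the start.

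Id4 had 8 distinct start loops. Of these 0 were in all 4 lists, against 5.5% over protein-coding starts, 6 were in a single list (75%, 40.9 to 92.9), against 66.0%, and 2 were in both liver mets lists. With 8 loops these shares cannot be told from the background. The 2 in both liver mets lists led 66.2 kb upstream, with 0.0889 for FOXA1 and 0.146 for HNF4G, and 28.2 kb downstream, with 0.0769 and 0.146, values at or near the lower tied value of each list. FOXA1 tumor joined 0 of the 7 anchors within 250 kb to Id4, against 3 for FOXA1 liver mets, 2 for HNF4G liver mets and 1 for HNF4G tumor. The highest values belonged to long loops of a single list. They led to an intron of the kinesin gene Kif13a (1385 kb upstream, FOXA1 liver mets, 1.87), to the start of the chromatin protein gene Dek (1156 kb, FOXA1 tumor, 1.91) and to the start of the ubiquitin ligase gene Rnf144b (1067 kb, HNF4G tumor, 1.99). Each equals the higher tied value of its list.

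**Figure D5:**
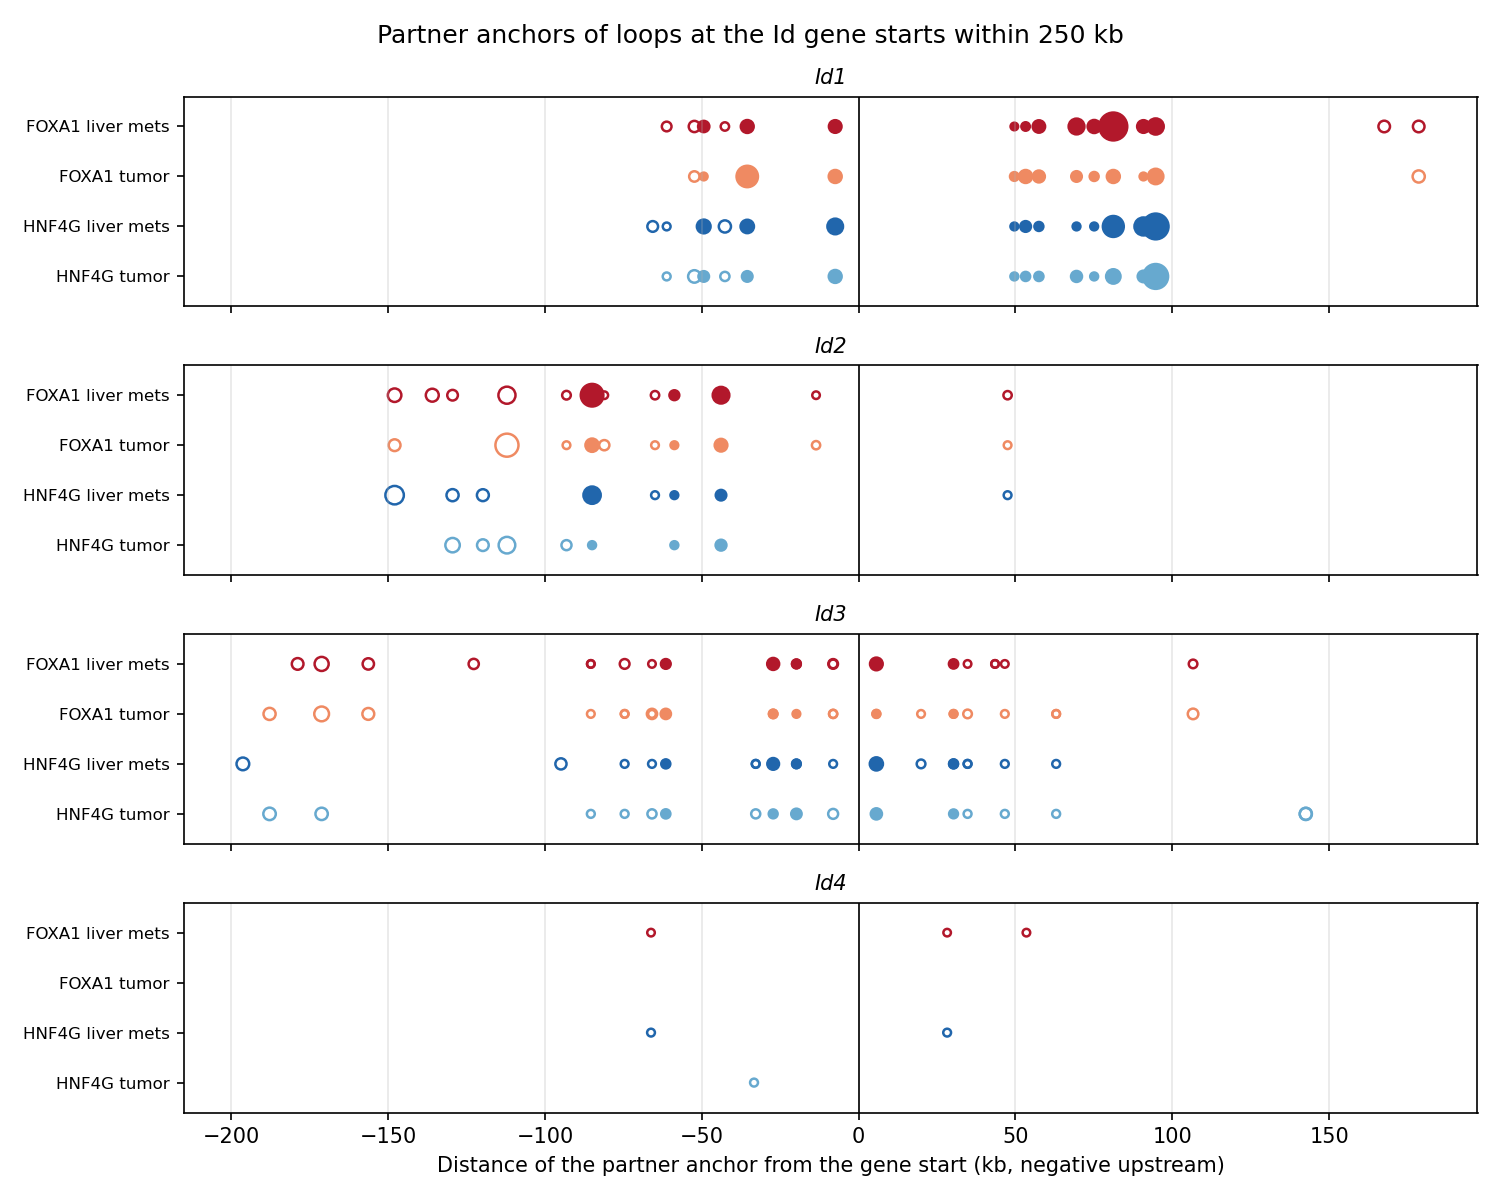
Distance of each partner within 250 kb from the gene's start (horizontal axis, kb, negative upstream) in each list (rows), for each ID gene. Larger symbols have higher values, and filled symbols stand for partners joined in all 4 lists, which at Id1 lay between 49.4 kb upstream and 94.7 kb downstream and at Id4 numbered 0.

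Compared between lines, the numbers of start loops gave ratios between 0.875 and 2.00 for the ID genes. The liver mets to tumor ratio for FOXA1 was 1.21 (0.631 to 2.35) for Id1, 1.17 (0.501 to 2.76) for Id2, 1.11 (0.643 to 1.92) for Id3 and 2.00 (0.287 to 22.1) for Id4. For HNF4G it was 0.875 (0.463 to 1.64) for Id1, 1.00 (0.374 to 2.68) for Id2 and 1.32 (0.731 to 2.41) for Id3, and Id4 had 2 loops in each line. Each of these intervals includes 1, so at this number of loops no difference was detectable, and the widths leave room for sizable ones.

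Region loops gave a similar account. Id1 had 76, 64, 60 and 67 region loops for FOXA1 in liver mets and tumor and HNF4G in liver mets and tumor. Id2 had 45, 33, 25 and 19, Id3 had 131, 105, 92 and 81, and Id4 had 5, 3, 3 and 2. The FOXA1 ratio of liver mets to tumor was 1.36 (0.851 to 2.21) for Id2 and 1.25 (0.958 to 1.63) for Id3, and the HNF4G ratio for Id1 was 0.896. The intervals of all 8 region ratios include 1. Divided by list size, the FOXA1 ratio turned to 0.984 for the Id1 region and to 0.967 and 0.918 for the start loops of Id2 and Id3, so these directions rest on the scaling.

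The regions, measured as 250 kb from any annotated start rather than from the anchor's midpoint, differed in the share of their anchor pairs that were listed. At Id1 113 of 153 possible pairs of 18 anchors were listed in at least 1 list (73.9%), at Id3 226 of 406 pairs of 29 anchors (55.7%), at Id2 64 of 171 pairs of 19 anchors (37.4%) and at Id4 10 of 28 pairs of 8 anchors (35.7%). The loops of the ID starts themselves were a minority of these, from 15% of region loops at Id1 to 40% at Id4.

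The busiest distal anchors were often the partners already described. At Id1 the H13 exon anchor and 2 Bcl2l1 intron anchors each took part in 15 region loops, and the broad intron anchor had 15, 11, 13 and 11 in the 4 lists. At Id2 the unannotated anchor 43.9 kb upstream took part in 11, with 8, 5, 3 and 4 in the lists. At Id3 the E2f2 start anchor took part in 23, with 17 and 18 for FOXA1 in liver mets and tumor and 11 and 9 for HNF4G, so it was busier in the FOXA1 lists, which are also the longer lists. At Id4 an anchor in introns of the noncoding genes A330033J07Rik and Gm36346 took part in 4 region loops, with 2, 2, 2 and 0.

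Over the 4 genes, 19 of 126 start loops (15.1%, 9.87 to 22.4) were in all 4 lists, against 5.5% of 161537 loops of protein-coding starts. Between 20 and 100 kb the numbers were 16 of 50 (32.0%, 20.8 to 45.8) against 11.7% of 35095. Id1 supplied most of these. At that distance it had 10 of 14 (71.4%, 45.4 to 88.3), Id2 had 3 of 7, Id3 had 3 of 25 and Id4 had 0 of 4. Without Id1 the shares were 8 of 86 (9.30%, 4.79 to 17.3) over all distances and 6 of 36 (16.7%, 7.87 to 31.9) between 20 and 100 kb. Each interval includes its background. Of 52 loops of 250 kb or more, 43 (82.7%) were in a single list, against 85.8% over protein-coding starts. These backgrounds were not matched for anchor width, and the Id1 and Id2 start anchors were among the widest. Start anchors as wide as these had medians of 28.6% and 37.8% of neighbors within 250 kb joined in all 4 lists. Over all start anchors of protein-coding genes with enough neighbors that median was 0%.

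Values of at least 2 were reached in any list by 8 Id1 loops, 7 Id2 loops, 1 Id3 loop and 0 Id4 loops. The share of ID start loops with such a value was 12.5% for FOXA1 in liver mets and 9.84% in tumor, and 12.9% for HNF4G in liver mets and 8.62% in tumor. Over the whole lists the shares were 9.33%, 7.84%, 7.21% and 7.32%.

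The genes whose start loops were divided over the 4 lists most like each ID gene were found by the sum of absolute differences of the 4 shares, among 6123 protein-coding genes with at least 20 loops summed over the lists. For Id1 they were Cdc34 (0.0155), Grin1 (0.0205) and Cactin (0.0209). For Id2 they were Slc25a4 and Sspn (0 for each) and Proser2 (0.0104), and for Id3 Tns3 (0.0140), Fosl2 (0.0172) and Taf12 (0.0172). Id4 had too few loops to be compared. These likenesses rest on 4 values per gene.

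Of 22 genes of the ID and BMP pathways, 14 had start loops, against 49.2% of 21951 protein-coding genes, and 8 had a loop present in all 4 lists, against 19.6%. The median sum over the lists was 16 loops, against 87 for Id1, 46 for Id2, 110 for Id3 and 10 for Id4. Among the BMP ligand genes 2 of 4 had loops, with Bmp6 the highest (14, 17, 10 and 10 in the 4 lists) and Bmp2 and Bmp7 at 0. Among the receptor genes 2 of 4 had loops, with Acvr1 the highest (7, 8, 6 and 7) and Bmpr1b and Bmpr2 at 0.

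The SMAD genes, which carry the BMP signal or hold it back, had the most. Loops were present at 5 of 6, and Smad9 had 0. Smad7, an inhibitory SMAD gene, had 55 and 36 for FOXA1 in liver mets and tumor and 27 and 30 for HNF4G, with 8 loops in all 4 lists. Its FOXA1 ratio was 1.53 (0.986 to 2.39). Among the bHLH genes 5 of 8 had loops. The E protein gene Tcf3, whose products dimerize with ID proteins, had the most (21, 21, 19 and 18), and Ptf1a, Neurog3 and Ascl2 had 0. Of the other tissue-specific factor genes in the list, Bhlha15 had 4, 9, 6 and 5 and Neurod1 had 2, 4, 2 and 3. At a ratio of 1.5 and at least 10 loops over both lines, 3 of 10 pathway genes were called higher in liver mets for FOXA1, against 25.3% of 6876 genes. They were Smad7, Smad1 (10 and 5 loops, ratio 2.00, 0.623 to 7.46) and Smad5 (12 and 5, 2.40, 0.787 to 8.70). Bhlha15 was called higher in tumor (4 and 9, 0.444, 0.10 to 1.59), against 8.62%. For HNF4G, 1 of 8 was called higher in liver mets (Smad5, 6 and 4), against 15.6% of 5439 genes, and 1 in tumor (Bmpr1a, 4 and 6), against 19.3%. The intervals of all these ratios include 1. In unscaled counts FOXA1 was higher in liver mets for 8 of the 14 pathway genes with start loops and in tumor for 5. Over the 10802 genes with start loops these shares were 57% and 29.8%. HNF4G was higher in liver mets for 9 of the 14 and in tumor for 4, against 40.5% and 42.9%. No interval was computed for these counts.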

How the data were processed

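FOXA1 and HNF4G Hi-ChIP was measured in KPC tumor and liver mets lines, with 2 replicates per group joined in 1 loop list each (how was not given in the sources used here). The authors digested chromatin with DpnII, mapped reads to mm10 and removed duplicates with HiC-Pro (3.1.0 per the submitters' processing notes) at default settings, and called loops with hichipper. Each loop has a value deposited by the authors without a name, taken here as the −log10 of an adjusted p-value, and a display score deposited by the authors, which is a step function of that value and was not used further. Paired reads per loop are unknown, so the depth behind a loop is unknown as well, and loops with few reads cannot be told from well-covered ones.

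Starts came from GENCODE M21 and sequence from GRCm38.p6. Identical anchor pairs counted as the same loop across lists. For ratios the intervals are exact (Clopper-Pearson, with both counts' total held fixed), shares carry Wilson intervals, and counts carry exact Poisson intervals, all at 95%. Scripts used Python 3.11.15, numpy 2.4.6, pandas 2.3.3, scipy 1.17.1 and matplotlib 3.10.9 and were tested on simulated data.

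The loops named were every start loop in all 4 lists and, per gene, the 3 start loops with the highest value. Anchors named were the distal partners with the most region loops per gene, and pathway genes named were those with the highest or lowest sum in their role. Smad1, Smad5, Bhlha15 and Bmpr1a were named in addition as called genes, and Neurod1 was named outside this rule. Like genes were the 3 nearest by shares for members with at least 20 loops. A ratio of 1.5 or its inverse was called where both lists together held at least 10 loops. The members and lists were chosen with earlier results of these data known. Alternatives changed the start window (to 5 kb, or to anchors overlapping the start), the region (100 and 500 kb), the starts used, the minimum value, the shortest span (20 kb), the scaling to list size and the anchor width.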

Additional observations from a re-analysis of the deposited data

How the results depend on the processing

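Each of 18 results was recomputed, giving 105 alternative values, of which 101 lay inside the counting interval of the reported value. Many of these intervals are wide, above all for Id4, so lying inside them shows little. With loops limited to a value of 2 or more, the HNF4G ratio at Id1 was 3 (6 loops in liver mets and 2 in tumor), the FOXA1 ratio in the Id3 region was 0.50 (2 and 4), and 6.25% of ID start loops (1 of 16) were in all 4 lists. With anchors widened by 5 kb, 45.2% (57 of 126) were in all 4 lists. The cause of these moves was not tested, but the first 3 rest on few loops and the last counts neighboring loops as the same. In 9 cases a ratio lay on the other side of 1 than reported, among them the FOXA1 start ratios of Id2 (0.967) and Id3 (0.918) and the FOXA1 ratio of the Id1 region (0.984) after division by list size. The called ratio at the upstream Id3 anchor for HNF4G (3.50), whose alternatives were chosen after seeing the data, was 3.42 (1.07 to 14.3) after division by list size and 3.67 (0.969 to 20.5) without loops under 20 kb, whose interval includes 1. It lost its call at 1.10 when both Id3 anchors were merged. With only anchors overlapping the start, the HNF4G ratio at Id3 was 0.833 in place of 1.32. A value could not be given in 9 cases, 7 of them for Id4, because at least 1 line had 0 loops. No paired analysis was possible because each list joins both replicates and its columns carry no replicate number, and leaving out a replicate could not be run for the same reason.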
